A study of Mus musculus with 12 samples.

Results

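The *aadd* chondrocytes were compared with WT resting chondrocytes, both from mouse E15.5 zeugopods, the forearm segment that holds the radius and ulna. Of 12 deposited RNA-Seq libraries 6 entered, 3 from *aadd* and 3 from WT resting. Of 36186 rows in the table, 10068 had at least 5 NRPKM in at least 3 of these 6 libraries and were tested. NRPKM is RPKM, the reads of a gene scaled by its length and by the depth of the library, after a further normalization across libraries by the authors. *aadd* mice are homozygous for first-exon frameshift mutations of *Hoxa9*, *Hoxa10*, *Hoxa11*, *Hoxd9*, *Hoxd10* and *Hoxd11*, while WT mice carry none of them. The stock is mixed, from 129 and CD-1 mice, and both groups were taken from sections by laser capture. The labels call both groups resting. According to the study's methods, however, the small mutant zeugopod was captured whole, as one undivided chondrocyte population, while the WT sample was the resting compartment alone. Both captures took some perichondrium. The captured region is therefore confounded with genotype, and the effects of the mutations and of the region cannot be told apart. In bulk RNA, fewer cells of a type and less RNA per cell cannot be told apart either.

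Hox proteins of groups 9 to 11 are homeodomain transcription factors that pattern the upper and middle limb, and loss of the group 11 genes shortens the forearm. Long bones are laid down as cartilage, in which round resting chondrocytes feed columns of dividing cells that then enlarge and are replaced by bone. Growth of this template is set by hedgehog, BMP, Wnt and FGF signals that pass between the chondrocytes and the surrounding perichondrium. The Hox genes and 28 other genes discussed in the study are left aside here, so that the pathways and families beyond them can be described.

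The label was first checked against cartilage genes. *Col2a1*, the main cartilage collagen, stood at 861, 1074 and 720 NRPKM in *aadd* 1 to 3 and at 799, 1202 and 1409 NRPKM in WT resting 1 to 3. *Sox9*, the transcription factor of chondrocyte identity, was between 141 and 186 NRPKM in these 6 libraries. Both genes overlapped between the groups, and other cartilage matrix genes are given below. The mutated genes themselves remained transcribed, which does not bear on the frameshifts: *Hoxa9* was 17.3 ± 2.27 NRPKM in *aadd* and 16.9 ± 6.67 NRPKM in WT resting (mean ± SD, n = 3 each), and *Hoxd11* was higher in *aadd*, at 25.1 to 35.4 NRPKM against 4.34 to 7.31. *Hoxa11* was lower, at 8.76 ± 3.15 against 21.6 ± 9.67 NRPKM.

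A gene is called here at a moderated *P* of at most 0.05 with a fold change (FC) of at least 1.5. By this rule 608 of 10068 genes (6.04%) differed, with 361 (3.59%) higher and 247 (2.45%) lower in *aadd*. Every count of calls in a list below is to be read beside these shares, also where they are not repeated. The lists were chosen with earlier results of these data known, so their counts only describe. Of the 608 genes, 575 lay beyond the Hox clusters and the 28 genes, 335 higher and 240 lower. After Benjamini-Hochberg adjustment 13 genes (0.129%) remained under 0.05, 10 of them higher, and 956 had an unadjusted *P* of at most 0.05. Most calls below therefore rest on the unadjusted rule. The 3 libraries of *aadd* did not overlap those of WT resting for 1553 genes (15.4%), and for 533 of the 608 called. There were 110 genes that passed the filter through a single group, with 5 NRPKM reached in all of its libraries and in none of the other, and 89 of them were called. Such a gene entered the test because it was high in a single group, so its call and *P* describe it and lend it no support. The same holds for its part in any count of a list below. Among the genes named below, such single-group genes are *Plxna4*, *Cxcl12*, *Arhgap18*, *F930015N05Rik*, *Fzd4*, *Fzd5*, *Gdf6*, *Nrn1*, *Twist1*, *Fbln5*, *Adamts15*, *Cldn1*, *Actc1*, *F13a1* and *Hist1h2bf*, high in *aadd*, and *2610528A11Rik*, *Gm973*, *Cxcr1*, *Gfod1* and *Panx3*, high in WT resting. The median log2 fold change over all genes tested was 0.01, with quartiles of -0.19 and 0.20, and 51% of them lay above 0. In the plot of fold change against level, called genes spread over the range of levels and the widest changes sit at low levels.

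**Figure D1:**
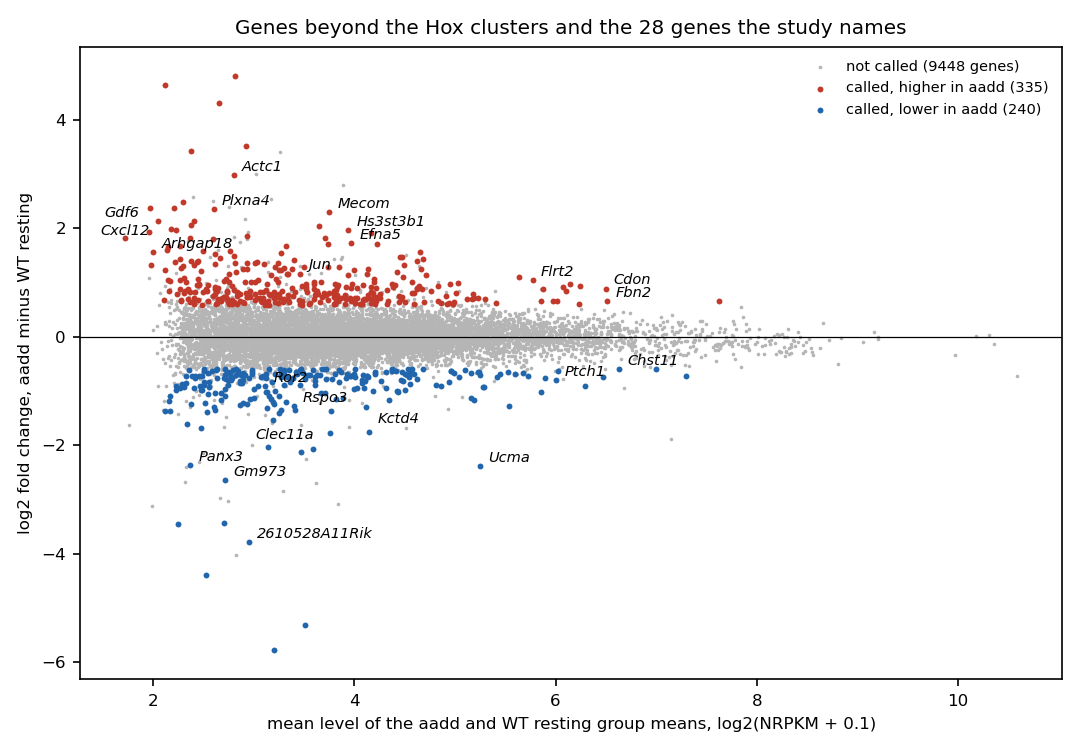
Log2 fold change (*aadd* minus WT resting) against the mean level on the log2(NRPKM + 0.1) scale, 1 point per gene beyond the Hox clusters and the 28 genes. The 335 red points were called higher in *aadd*, the 240 blue points lower, and grey points were not called.

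Library depth was estimated from the value that 1 read takes, at 2200000 to 2860000 reads in *aadd* and 2400000 to 2950000 in WT resting. The estimate assumes plain RPKM, so the authors' further normalization may be part of it. Of the 1726 receptor and keratin-associated genes used, 146, 526 and 519 were above 0 in *aadd* 1 to 3. In WT resting 1 to 3 these were 346, 348 and 165. The libraries were not equally free of other tissue. *aadd* 2 had the highest summed endothelial markers of the 6 (40.6 NRPKM against 4.83 to 12.64 elsewhere), macrophage markers (56.4 against 17.1 to 25.4) and erythroid markers (216 against 63.6 to 101). WT resting 2 held epidermal keratin and junction markers at 202 NRPKM, against 5.43 to 31.9 elsewhere. Skeletal muscle markers summed to 50.7, 75.5 and 23.1 NRPKM in *aadd* and 12.3 to 20.3 NRPKM in WT resting, with 1 of 17 above the filter. By *Xist* and Y-linked genes *aadd* 1 and 2 and WT resting 2 were male and the others female. The part of these differences in any gene below was not tested, and counts without a library are given where they move.

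Guidance receptors and their ligands, best known from growing axons and migrating cells, included the gene with the lowest *P* described here. It was *Plxna4*, a plexin that carries semaphorin signals into the cell, which passed the filter through *aadd* alone. In *aadd* 1 to 3 it stood at 15.4, 12.2 and 13.2 NRPKM, and the WT resting libraries had 2.86, 2.51 and 2.41 NRPKM. The rise was 2.35 ± 0.17 on the log2 scale (SE, limma adjusted *P* = 0.0063), and the adjusted *P* ran from 0.00338 to 0.200 over the alternatives that tested the gene. In WT proliferative and hypertrophic libraries *Plxna4* averaged 0.98 and 4.18 NRPKM, so no WT compartment mean came near the *aadd* values. The row *Plxna4os1*, an antisense transcript, overlaps this gene, and counting was not stated to use strand.

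Of 14 semaphorins and plexins tested, 3 rose (21.4%, against 3.59% of all genes) and none fell (2.45% of all genes). The 3 include *Plxna4*, which passed the filter through *aadd* alone, so its call lends this share no support. The secreted semaphorins *Sema3c* and *Sema3a* rose by 0.69 ± 0.22 and 0.68 ± 0.26. Among slits, robos and netrins 3 of 11 rose (27.3%, against the same 3.59%) and none fell. *Robo2*, a slit receptor, was at 11.8, 11.1 and 14.6 NRPKM in *aadd* and at 6.71, 2.98 and 5.47 NRPKM in WT resting. *Robo1* rose by 1.13 ± 0.31, and *Flrt2*, an adhesion protein that binds Unc5 receptors, by 1.05 ± 0.33 from a higher level of 25.3 to 57.5 NRPKM. The list medians, 0.14 and 0.06, were close to that of all genes. The calls were a few members of each family beside a list that stayed near 0. *Flrt2* was not called without *aadd* 3.

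Of 11 Eph receptors and ephrins 2 rose (18.2%, against 3.59% of all genes), both of them ligands, and none fell. *Efna5*, a membrane-anchored ephrin, was at 21.1, 29.6 and 34.6 NRPKM in *aadd* against 9.98, 6.92 and 8.43 NRPKM in WT resting, a rise of 1.73 ± 0.24 (adjusted *P* = 0.064, limma). *Efnb2*, a transmembrane ephrin, rose by 0.69 ± 0.18, while the list median was -0.24. *Efnb2* was not called without WT resting 1. *Efna5* was called in all 17 settings, whereas *Sema3a* was called in 11 and *Sema3c* in 14. Without *aadd* 3 or WT resting 2 *Sema3c* was not called, and without *aadd* 2, *aadd* 3 or WT resting 3 *Sema3a* was not.

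A set of growth cone and neural adhesion proteins was drawn up after the calls had been seen, so its counts only describe. In it 8 of 13 rose and 1 fell (61.5% and 7.69%, against 3.59% and 2.45% of all genes), with a median of 0.70. *Basp1* and *Marcks*, membrane-bound substrates of protein kinase C that organise cortical actin, rose by 1.68 ± 0.40 and 1.18 ± 0.31. *Alcam*, an adhesion molecule of the immunoglobulin family, was at 31.9, 29.3 and 48.7 NRPKM in *aadd* and 12.8, 10.8 and 15.4 NRPKM in WT resting. *Nrn1*, the neurite-promoting protein neuritin, rose by 2.12 ± 0.63, having passed the filter through *aadd* alone. *Ncam1*, which marks condensing mesenchyme and nerve, went the other way, at 14.1, 14.6 and 11.0 NRPKM against 23.7, 43.0 and 25.4 NRPKM. For each of these 5 genes the libraries of the groups did not overlap, as for 533 of the 608 genes called and 15.4% of all genes. Summed Schwann cell and nerve markers were 7.23 to 22.5 NRPKM in *aadd* and 13.3 to 30.8 NRPKM in WT resting. *Cdh2*, the neural cadherin also used in condensing mesenchyme, rose by 1.25 ± 0.18 (adjusted *P* = 0.071, limma). In WT hypertrophic cells *Cdh2*, *Marcks* and *Basp1* averaged 74.8, 50.1 and 18.4 NRPKM, above their *aadd* means of 11.7, 32.4 and 17.5 NRPKM. *Alcam* and *Nrn1* averaged 6.8 and 2.0 NRPKM there, below their *aadd* means of 36.6 and 9.6 NRPKM.

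Of 5 chemokines and chemokine receptors tested, in a list drawn up after the calls were seen, 2 rose and 1 fell, with a median of 0.42. *Cxcl12*, the chemokine that draws in CXCR4-bearing cells, was at 8.03, 8.71 and 9.87 NRPKM in *aadd* and at 1.65, 2.41 and 2.50 NRPKM in WT resting, a rise of 1.99 ± 0.20 (adjusted *P* = 0.024, limma, and 0.0187 to 0.230 over the alternatives). It passed the filter through *aadd* alone. Its scavenging receptor *Ackr3* rose as well, by 0.95 ± 0.29, with 20.6 to 24.7 NRPKM against 7.59 to 17.4 NRPKM. The fall was *Cxcr1*, a chemokine receptor, at 1.39, 2.83 and 4.97 NRPKM against 9.87, 5.03 and 14.3 NRPKM (-1.68 ± 0.51), and it passed the filter through WT resting alone. The WT compartments held less *Cxcl12* than *aadd* in the proliferative zone (3.59 NRPKM) and more in the hypertrophic zone (18.6 NRPKM). *Arhgap18*, which switches off small GTPases, rose by 1.56 ± 0.18 (adjusted *P* = 0.034, limma, and 0.0353 to 0.407 over the alternatives), again having passed the filter through *aadd* alone.

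Wnt receptors were called in both directions. Of 17 Wnt receptors and co-receptors tested, 5 rose (29.4%, against 3.59% of all genes) and 1 fell, with a list median of 0.09. The 5 include *Fzd4* and *Fzd5*, which passed the filter through *aadd* alone, and 3 to 5 rose over all fits. The frizzled receptor *Fzd6* was at 8.05, 9.77 and 9.09 NRPKM in *aadd* and at 1.31, 5.61 and 3.34 NRPKM in WT resting, a rise of 1.58 ± 0.46. *Fzd5* rose by 1.28 ± 0.26, *Fzd4* by 0.87 ± 0.22 and *Fzd8* by 0.79 ± 0.27, the last not called without *aadd* 2, *aadd* 3 or WT resting 1. *Tspan12*, a tetraspanin that assists Fzd4, rose by 1.20 ± 0.23, from 3.53 to 5.31 NRPKM in WT resting to 8.45 to 12.9 NRPKM in *aadd*. The receptors with the highest levels, *Lrp6*, *Lgr4* and *Ryk*, did not pass the test, at log2 fold changes of 0.09, -0.25 and -0.18.

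*Ror2*, the tyrosine kinase receptor for Wnt5a that orients dividing chondrocytes and whose loss shortens limbs, fell. It was at 7.16, 6.05 and 5.36 NRPKM in *aadd* and 13.2, 11.2 and 10.8 NRPKM in WT resting. Its log2 fold change was -0.92 ± 0.18, and it was called in all 17 settings. In a planar cell polarity list drawn up after the calls were seen, *Ptk7* and *Prickle1* fell with it, by 0.62 ± 0.20 and 0.61 ± 0.20, and *Fzd6* alone rose. That list held 18 tested genes with a median of -0.03. *Ptk7* lost its call without *aadd* 3, and *Prickle1* without *aadd* 2 or WT resting 1.

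Of 4 Wnt ligands and R-spondins tested, only *Rspo3*, which boosts Wnt signals by protecting frizzled receptors, was called. It was lower, at 6.45, 10.5 and 3.82 NRPKM against 14.7, 19.5 and 13.3 NRPKM (log2 fold change -1.28 ± 0.36). Of 7 inhibitors that act outside the cell, *Sfrp2* and *Trabd2b* rose by 0.91 ± 0.24 and 0.85 ± 0.27 (28.6%, against 3.59% of all genes). In the nucleus, the Groucho co-repressors that silence TCF targets diverged. *Tle4* rose by 0.94 ± 0.26 and *Tle1* by 0.66 ± 0.21, while *Tle3* fell by 1.25 ± 0.28. *Tle1* was not called without *aadd* 1 or WT resting 1. *Ctnnb1*, *Tcf7l1* and *Tcf7l2*, the most abundant of the 11 transcription factors and targets tested, gave log2 fold changes of -0.08, -0.25 and -0.02 and were not called.

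Hedgehog pathway genes were called in both directions. The receptor *Ptch1*, itself a target gene of the pathway, stood at 49.6, 42.3 and 54.0 NRPKM in *aadd* while WT resting had 93.6, 87.3 and 73.0 NRPKM. The log2 fold change was -0.80 ± 0.18, called in all 17 settings. WT proliferative cells held 148 NRPKM. *Kif7*, a ciliary kinesin that controls Gli proteins, and *Hhat*, which palmitoylates the ligand, were lower by the same rule, at -0.70 ± 0.25 and -0.70 ± 0.29. *Cdon*, a co-receptor that binds hedgehog ligands, was higher, at 113, 141 and 111 NRPKM against 48.7, 68.9 and 83.0 NRPKM (0.89 ± 0.23), as was *Disp1*, which releases the ligand (0.69 ± 0.20). So 2 of 11 rose and 3 fell (18.2% and 27.3%, against 3.59% and 2.45% of all genes), around a median of -0.09. *Boc*, a co-receptor like *Cdon*, was not called at -0.09. Without *aadd* 3 or WT resting 2 only 1 of the lower calls was left, and without WT resting 2 *Disp1* was not called. *Hhat* overlapped between the groups and was called in 10 of 17 settings. It was also lost without *aadd* 1 or WT resting 3, and *Kif7* also without WT resting 1.

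Hedgehog signals pass through the primary cilium, and a list of 66 ciliary and basal body genes was drawn up after the calls were seen. In it 7 fell and 2 rose (10.6% and 3.03%, against 2.45% and 3.59% of all genes), with a median of -0.09. *Cep164*, needed to dock the basal body, was at 10.4, 7.81 and 5.22 NRPKM against 11.4, 13.7 and 13.1 NRPKM. *Odf2*, an appendage protein, gave -0.65 ± 0.19. No lower call was left without *aadd* 3, the library with the lowest *Cep164*, *Azi1* and *Kif7*. There was 1 without WT resting 2, 3 without WT resting 3, and 9 without *aadd* 1.

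Of 14 BMP and GDF ligands, receptors and Smads 3 rose and 1 fell (21.4% and 7.14%, against 3.59% and 2.45% of all genes). The rises were all ligands, and *Gdf6* among them passed the filter through *aadd* alone. *Gdf6*, a joint-forming relative of Gdf5, was at 7.97, 10.8 and 5.79 NRPKM in *aadd* and 1.05, 1.42 and 3.43 NRPKM in WT resting, a rise of 2.13 ± 0.43. *Bmp3*, an atypical ligand that opposes other BMPs, rose by 0.95 ± 0.30, and *Bmp4* by 0.87 ± 0.35. *Bmp4* was not called without *aadd* 1, *aadd* 2, WT resting 1 or WT resting 2. *Bmpr2* and *Bmpr1a* gave log2 fold changes of -0.03 and 0.31, and the receptor Smad *Smad9* was lower at -0.65 ± 0.22, though not without *aadd* 1, WT resting 1 or WT resting 3.

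All 8 secreted BMP antagonists tested had a log2 fold change above 0 (51% of all genes had), with a median of 0.49. Only *Chrdl1* was called (12.5%, against 3.59% of all genes), at 15.1, 11.0 and 24.5 NRPKM against 9.597, 8.95 and 10.3 NRPKM. *Fstl1* and *Twsg1*, the most abundant, gave 0.29 and 0.44 without passing. *Chrdl1* lost its call when either *aadd* 1 or *aadd* 3, or any WT resting library, was left out. None of 5 BMP target genes was called, with *Id1*, *Id2* and *Id3* at 0.09, -0.17 and -0.04.

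The joint marker list, in which *Gdf6* also stands, had 5 of 10 genes above the filter. All 5 were above 0 (51% of all genes were), with a median of 0.91. Of the 5, 3 were called higher (60%, against 3.59% of all genes): *Gdf6*, *Sfrp2* and *Barx1*. The call of *Gdf6*, which passed the filter through *aadd* alone, lends this share no support. *Barx1*, a homeobox gene of articular surfaces, was at 16.0, 11.4 and 15.8 NRPKM against 3.32, 5.51 and 10.9 NRPKM. Summed over the list, *aadd* libraries had 162 to 171 NRPKM and WT resting libraries 86.1 to 132 NRPKM. *Sfrp2* alone made up 89.1, 83.3 and 99.9 NRPKM of the sums in *aadd* 1 to 3. In WT resting 1 to 3 it made up 50.1, 63.2 and 35.3 NRPKM. The sums therefore do not speak for the other members. The WT proliferative and hypertrophic means of *Barx1* were 0.49 and 0.26 NRPKM and those of *Gdf6* 0.48 and 1.06 NRPKM, below their WT resting means. According to the study, not every joint marker rose in the mutants, and *Osr2*, *Cux1* and *Erg* were among those without a rise. This list therefore does not speak for all joint markers. How much of each capture lay next to a joint is not given in the sources used here, and its part was not tested.

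The plot of signal and guidance genes shows these levels in every library.

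**Figure D2:**
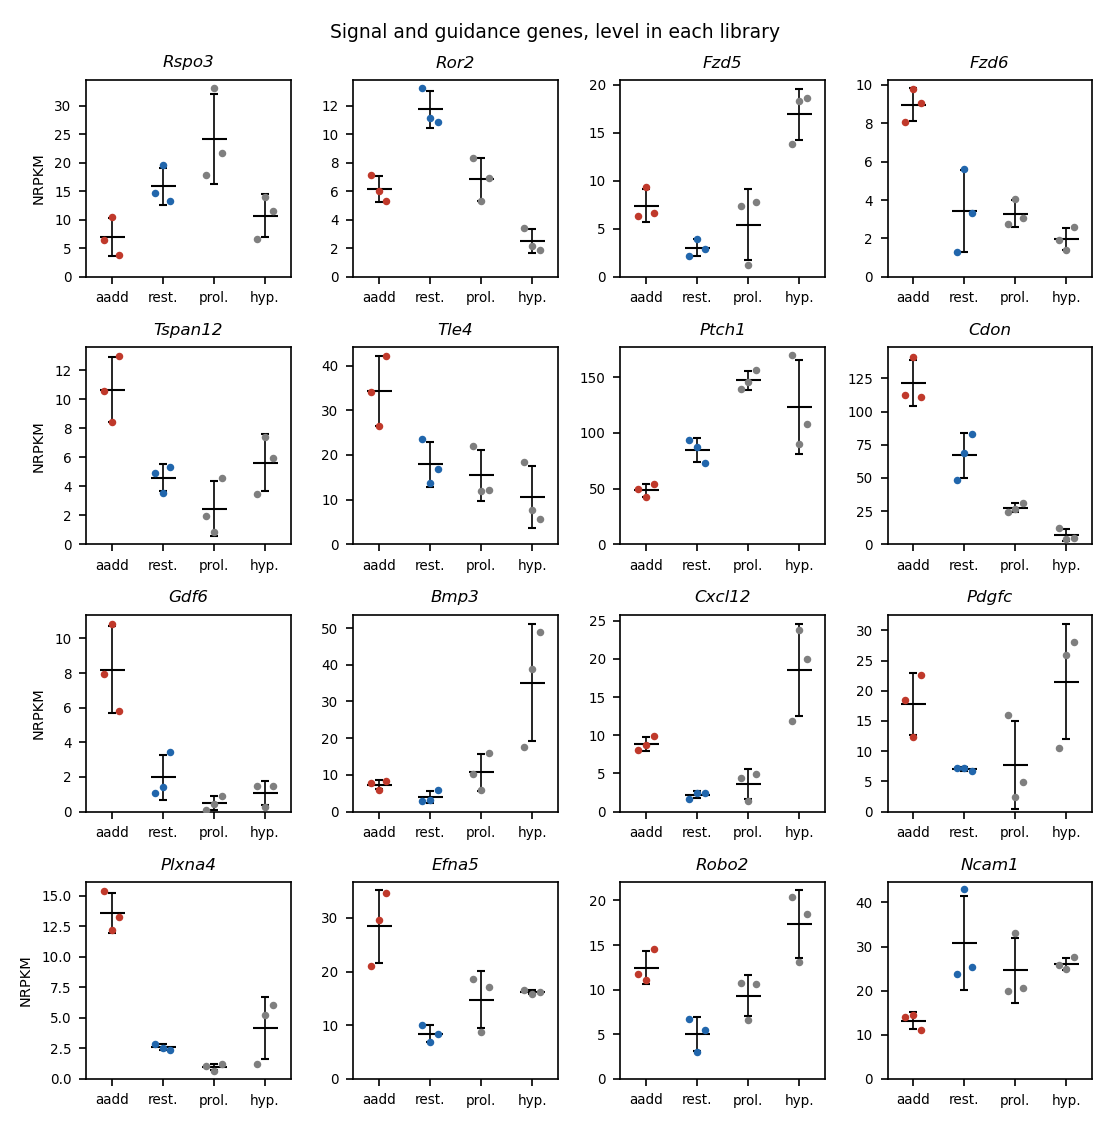
NRPKM of 16 signal and guidance genes in the 3 libraries each of *aadd* (red), WT resting (rest., blue), WT proliferative (prol., grey) and WT hypertrophic (hyp., grey) cells. Points are libraries, black bars are mean and SD. *Plxna4* was 12.2 to 15.4 in *aadd* and at most 2.86 in WT resting. *Ror2*, *Rspo3*, *Ptch1* and *Ncam1* were lower in *aadd* with no overlap, as for 15.4% of all genes tested.

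Other growth factor pathways gave 1 to 3 calls each. *Pdgfc*, a ligand for the PDGF alpha receptor, was at 18.4, 12.4 and 22.7 NRPKM against 7.19, 7.27 and 6.63 NRPKM (1.29 ± 0.24), and the receptor *Pdgfra* rose by 0.61 ± 0.17. *Vegfa*, the vessel growth factor, was lower at -0.66 ± 0.27, but was called in only 8 of 17 settings and not when any 1 of the *aadd* libraries, WT resting 2 or WT resting 3 was left out. In the TGF-beta list 2 of 17 rose (11.8%, against 3.59% of all genes), the latent binding protein *Ltbp1* (0.98 ± 0.24) and the co-receptor *Tgfbr3* (0.89 ± 0.31). In the FGF list 2 of 12 rose (16.7%, against the same 3.59%). They were the feedback inhibitor *Spry2* and the ETS factor *Etv1*, both targets of the pathway, by 0.999 ± 0.32 and 0.68 ± 0.19. *Igfbp4*, which binds insulin-like growth factors, rose by 0.97 ± 0.23, the sole call among 13 IGF genes, and *Igf2*, at over 1000 NRPKM in all 6 libraries, gave 0.04. None of 7 Notch, 10 retinoic acid, 17 Yap and Tead or 9 PTHrP and natriuretic peptide genes was called. Among these calls, *Pdgfra* was absent without *aadd* 1 or WT resting 1, *Tgfbr3* without *aadd* 2, WT resting 1 or WT resting 2, *Spry2* without *aadd* 3 and *Etv1* without *aadd* 2.

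Transcription factors beyond the Hox clusters were described by family. In a list of Sall, Zfhx, Tshz, Zeb, Ebf and Prdm zinc fingers, 6 of 12 rose (50%, against 3.59% of all genes), none fell and the median was 0.65. The list joins several families and was chosen with earlier results of these data known, so its share only describes. *Mecom*, the Evi1 factor, was at 25.4, 23.0 and 29.9 NRPKM in *aadd* and at 6.87, 1.67 and 11.9 NRPKM in WT resting (2.30 ± 0.62), and its relative *Prdm16* rose by 0.97 ± 0.31. *Ebf1*, of early mesenchyme, rose by 1.10 ± 0.36. *Zeb1*, a repressor of E-cadherin, was at 34.0, 43.3 and 29.6 NRPKM against 21.9, 20.8 and 24.7 NRPKM. *Zfhx4* and *Tshz1* rose by 0.79 ± 0.31 and 0.64 ± 0.19. The list median stayed between 0.50 and 0.74 in all 18 fits, with 3 to 6 members called higher. Leaving out *aadd* 1 or *aadd* 2 left 3 (*Ebf1* and *Zeb1* were lost without *aadd* 2, *Prdm16* without *aadd* 1, and *Tshz1* without *aadd* 1, WT resting 1 or WT resting 3), and *Zfhx4* was called in 11 of 17 settings.

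Among Msx, Dlx, Lhx, Alx, Barx and Prrx homeobox genes 2 of 6 rose (33.3%, against 3.59% of all genes). *Lhx2*, which conveys signals from the ectodermal ridge in the limb bud, was at 8.56, 10.3 and 10.1 NRPKM against 5.90, 5.48 and 2.37 NRPKM (1.16 ± 0.34), and *Barx1* was given above. *Mkx*, the tendon homeobox gene Mohawk, was the sole call among 7 TALE and Iroquois genes, at 27.9, 25.5 and 33.6 NRPKM against 17.4, 14.7 and 12.1 NRPKM (0.98 ± 0.20). *Foxp1* and *Foxc2*, forkhead factors of perichondrium and mesoderm, rose by 0.97 ± 0.31 and 1.28 ± 0.47. *Twist1*, which restrains osteoblast and cartilage maturation, rose by 1.39 ± 0.32. *Sox11*, of the condensing skeleton and joints, was lower at -0.84 ± 0.29, while the chondrogenic *Sox5* and *Sox6* gave -0.09 and -0.20 and were not called. *Foxc2* was not called without *aadd* 3, nor *Sox11* without *aadd* 1, *aadd* 2 or WT resting 1.

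Immediate early genes are those whose RNA rises within minutes of a stimulus or of tissue handling. Of 16 tested 14 were above 0 (51% of all genes were), and 3 were called higher (18.8%, against 3.59% of all genes). *Jun* was at 17.4, 16.0 and 15.9 NRPKM in *aadd* and at 6.71, 7.75 and 7.38 NRPKM in WT resting, a rise of 1.16 ± 0.15 (adjusted *P* = 0.061, limma). *Dusp1*, a MAP kinase phosphatase, rose by 1.32 ± 0.35 and *Klf2* by 0.70 ± 0.26. *Myc* was lower, at -0.69 ± 0.23, and lost its call without *aadd* 1, *aadd* 2 or WT resting 1, as did *Klf2* without *aadd* 3, WT resting 1 or WT resting 2.

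**Figure D3:**
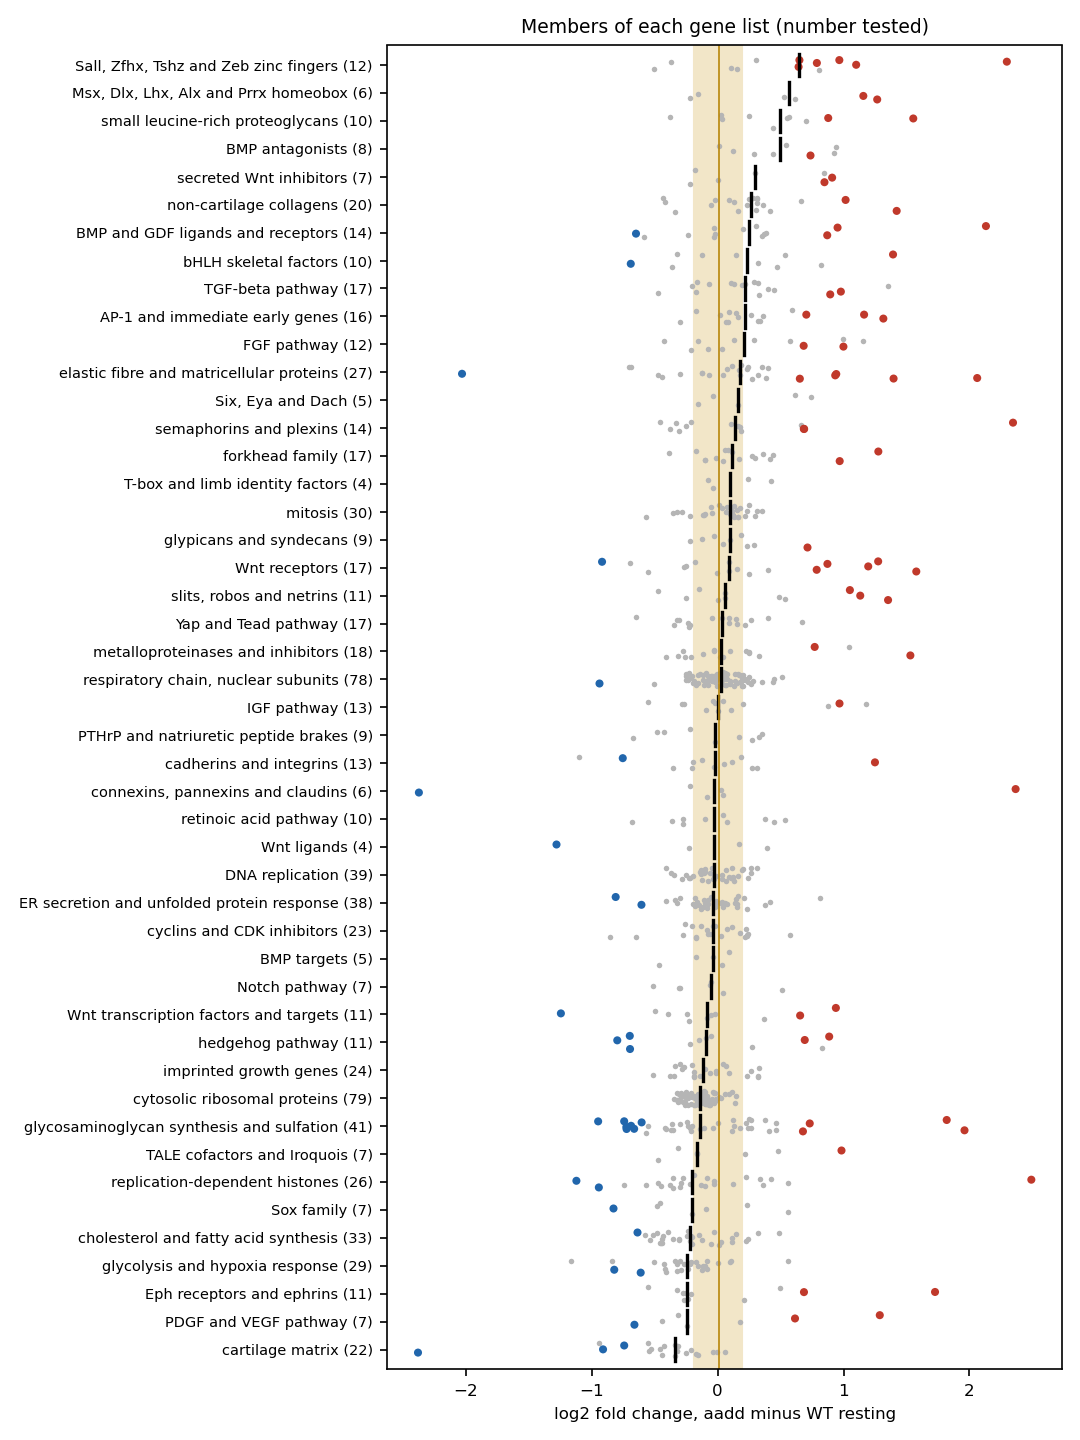
Log2 fold change (*aadd* minus WT resting) of the tested members of each pathway or family list with at least 4 tested, number tested in brackets. Red and blue points were called higher and lower, grey points were not called, black bars are list medians, and the band and line are the quartiles (-0.19 and 0.20) and median of all 10068 genes.

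Cartilage matrix genes lay mostly below 0, although 3 were called. Of 22 genes 21 had a log2 fold change below 0, with a median of -0.34, against 49% of all genes. *Ucma*, a secreted protein of resting cartilage, was at 9.18, 19.6 and 12.3 NRPKM in *aadd* and at 16.9, 205 and 91.6 NRPKM in WT resting (-2.38 ± 0.82), so the groups overlapped at WT resting 1. *Epyc*, a small proteoglycan of cartilage, was at 71.7, 71.8 and 57.5 NRPKM against 71.7, 144 and 135 NRPKM. The row *3110079O15Rik*, which encodes the chondrocyte transmembrane proteoglycan Snorc, gave -0.91 ± 0.33. *Col2a1*, *Col9a3* and *Lect1*, the most abundant members, gave -0.34, -0.34 and -0.21 and did not pass.

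WT resting 1 narrowed this difference. Without it the list median was -0.62, and without WT resting 2 or WT resting 3 the median was -0.26 and -0.23. The median of WT resting 1 over the list was 0.39 below the WT resting mean. This was beneath 2 of the 3 *aadd* libraries, which were at -0.26, -0.19 and -0.60. Without WT resting 1, 9 of the 22 were called lower. Without WT resting 2, *aadd* 1 or *aadd* 3 none was. The list median was between -0.62 and -0.23 in all 18 fits. WT resting 1 also had the lowest summed tendon markers, 90.6 NRPKM against 237 to 415 NRPKM elsewhere. The plot of list medians by library shows that its position was low for non-cartilage collagens and small proteoglycans as well.

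**Figure D4:**
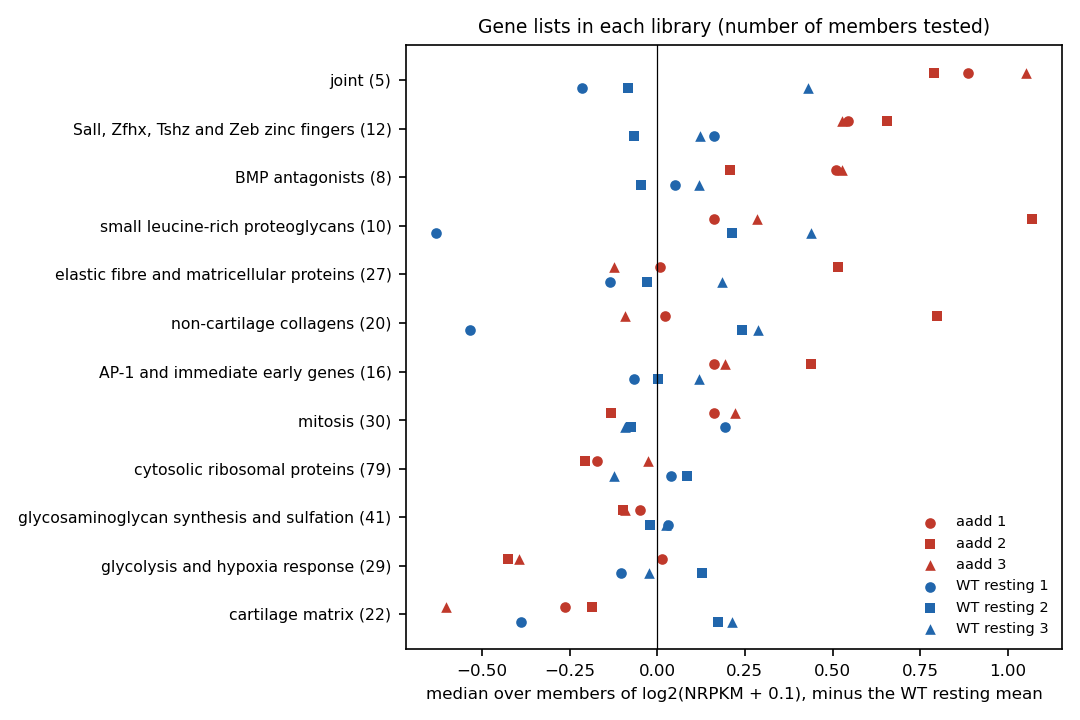
Median over the tested members of each list of log2(NRPKM + 0.1), relative to the WT resting mean of each gene, for *aadd* 1 to 3 (red) and WT resting 1 to 3 (blue). The zinc finger, BMP antagonist and joint lists separate the groups, while the cartilage matrix, collagen and small proteoglycan lists do not, with WT resting 1 at -0.39, -0.53 and -0.63.

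Enzymes that build the sugar chains of cartilage proteoglycans were called in both directions. Of 41 genes of glycosaminoglycan synthesis and sulfation 4 rose and 7 fell (9.76% and 17.1%, against 3.59% and 2.45% of all genes), with a median of -0.14. *Csgalnact1*, which starts chondroitin chains in cartilage, was at 39.6, 26.3 and 33.7 NRPKM in *aadd* and 61.3, 52.4 and 51.5 NRPKM in WT resting (-0.74 ± 0.20). *Chst11*, the main chondroitin 4-sulfotransferase of the growth plate, was at 79.8, 89.1 and 71.4 NRPKM against 111, 127 and 126 NRPKM (-0.60 ± 0.16). *Extl1*, of the heparan sulfate exostosin family, was lower at -0.95 ± 0.17. The other lower calls fell outside the rule for named genes and were listed after their values were seen: the linkage enzyme *Xylt1*, the chondroitin enzymes *Chsy3* and *Chst12*, and the hyaluronan synthase *Has3*, at -0.73, -0.72, -0.69 and -0.66. *Csgalnact2*, a second chondroitin starter enzyme, rose, at 11.0, 9.69 and 10.9 NRPKM against 6.18, 6.78 and 6.67 NRPKM (0.68 ± 0.15). The 2 starter enzymes thus moved in opposite directions. Neither overlapped between groups, as for 533 of the 608 genes called and 15.4% of all genes. *Papss2*, the sulfate donor synthase and the most abundant member, gave -0.20 and was not called. The number of lower calls was 3 to 10 over all fits and 3 without *aadd* 3, and *Chst11* was not called without *aadd* 3, WT resting 2 or WT resting 3.

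The remaining rises in the list were *Has1* (0.73, also outside the rule) and the paralogs *Hs3st3a1* and *Hs3st3b1*, heparan sulfate 3-O-sulfotransferases that lie as neighbours on mouse chromosome 11. *Hs3st3b1* (GRCm38, chr11:63884693-63922284) was at 31.3, 24.1 and 31.0 NRPKM in *aadd* and at 10.2, 3.61 and 10.4 NRPKM in WT resting (1.96 ± 0.40). *Hs3st3a1* (chr11:64435332-64522835) was at 24.6, 16.8 and 30.9 NRPKM against 9.14, 3.98 and 7.70 NRPKM (1.82 ± 0.35). Both genes were lowest in WT resting 2 and in *aadd* 2, and both were called in all 17 settings. WT proliferative means were 19.4 NRPKM for *Hs3st3b1* and 13.2 NRPKM for *Hs3st3a1*.

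The gap between them is 513 kb and holds 3 further rows that touch or lie in it. The lncRNA *F930015N05Rik* (chr11:64433135-64436674), which overlaps the start of *Hs3st3a1*, was at 6.26, 5.68 and 6.10 NRPKM against 2.12, 1.17 and 1.74 NRPKM, a rise of 1.82 ± 0.23 (adjusted *P* = 0.048, limma, and 0.0334 to 0.450 over the alternatives). It passed the filter through *aadd* alone. Reads of the overlap cannot be assigned to either gene where strand was not used. *Cox10* and the lncRNA *2810001G20Rik*, which lie between, were not called, at 0.42 and 0.30. The called rows of this stretch were thus the pair that bounds it and the lncRNA that overlaps *Hs3st3a1*, all higher. The stretch was chosen for the called pair, so their number only describes and lends no support. The paralogs share sequence in their sulfotransferase exons, and the authors kept only reads with a single alignment.

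The 250 bases before the RefSeq start of each paralog (GRCm38.p6) are printed to show the promoters of this pair, with CG dinucleotides in capitals.
Hs3st3a1, chr11:64435082-64435331, plus strand: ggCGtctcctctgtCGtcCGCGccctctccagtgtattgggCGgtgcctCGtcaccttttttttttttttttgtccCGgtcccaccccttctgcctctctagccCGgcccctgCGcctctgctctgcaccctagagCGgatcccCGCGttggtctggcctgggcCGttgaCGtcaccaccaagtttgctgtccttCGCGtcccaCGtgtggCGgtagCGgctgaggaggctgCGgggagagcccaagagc
Hs3st3b1, chr11:63922285-63922534, minus strand: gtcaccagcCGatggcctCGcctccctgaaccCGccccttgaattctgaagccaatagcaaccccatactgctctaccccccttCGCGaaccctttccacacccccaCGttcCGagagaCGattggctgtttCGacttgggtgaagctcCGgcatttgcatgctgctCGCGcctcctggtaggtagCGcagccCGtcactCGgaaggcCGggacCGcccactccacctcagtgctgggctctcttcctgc
They hold 20 and 17 CG dinucleotides, against a median of 16 (quartiles 9 and 24) over 10054 such windows of tested genes. Neither holds TTTATGG on either strand, a form of the site that posterior Hox proteins bind. Of 7943 tested genes that have a window, 1.81% held it, as did 2 of 272 called higher (0.735%) and 5 of 174 called lower (2.87%). Among all 27025 RefSeq genes with a window the share was 2.83%. The longer TGATTTAT, bound by Hox and Pbx proteins together, was in 0.365% of tested genes, 1 called higher and 3 called lower. A match is no evidence of binding, and these windows say nothing of distant enhancers.

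Examples of the match are shown for a gene called higher and a gene called lower, with the match, which reads CCATAAA because it lies on the opposite strand, in capitals.
Col8a1, chr16:57754738-57754987, minus strand: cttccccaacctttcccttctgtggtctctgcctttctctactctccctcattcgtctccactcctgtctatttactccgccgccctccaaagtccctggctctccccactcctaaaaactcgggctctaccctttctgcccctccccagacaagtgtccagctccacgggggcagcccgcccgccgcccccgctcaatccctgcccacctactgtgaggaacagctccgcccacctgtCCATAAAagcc
Itga8, chr2:12301945-12302194, minus strand: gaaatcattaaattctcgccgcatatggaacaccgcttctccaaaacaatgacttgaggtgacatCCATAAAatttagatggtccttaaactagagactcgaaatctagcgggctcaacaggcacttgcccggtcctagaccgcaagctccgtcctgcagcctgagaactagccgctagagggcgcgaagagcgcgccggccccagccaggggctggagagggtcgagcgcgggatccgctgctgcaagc
*Col8a1*, a short-chain collagen of vessels and perichondrium, was at 10.9, 31.4 and 11.2 NRPKM in *aadd* and at 3.35, 7.31 and 7.82 NRPKM in WT resting (1.42 ± 0.48), with the match 11 to 5 bases before the start. *Itga8*, an integrin that binds nephronectin and fibronectin, was lower at -0.75 ± 0.22, with the match 185 to 179 bases before the start. *Col8a1* was not called without WT resting 1, nor *Itga8* without *aadd* 2.

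Fibrous matrix belongs to perichondrium and connective tissue. Of 27 elastic fibre and matricellular genes 5 rose and 1 fell (18.5% and 3.70%, against 3.59% and 2.45% of all genes). The 5 include *Fbln5*, which passed the filter through *aadd* alone. Without WT resting 1 the balance turned, with 3 higher and 4 lower. *Fbln5*, which assembles elastic fibres, was at 7.22, 14.03 and 9.80 NRPKM against 3.54, 2.50 and 1.38 NRPKM (2.06 ± 0.37). *Lox*, which cross-links collagen and elastin, was at 24.7, 60.3 and 38.03 NRPKM against 13.2, 13.1 and 17.7 NRPKM (1.40 ± 0.32). *Eln* itself rose by 0.93 ± 0.32 and *Fbn2*, an embryonic microfibril protein, by 0.65 ± 0.17, from 68.7 to 74.8 NRPKM in WT resting to 101 to 130 NRPKM in *aadd*. *Postn* rose by 0.94 ± 0.40 but was called in only 7 of 17 settings, and not without *aadd* 2, *aadd* 3, WT resting 1 or WT resting 2. *Sparcl1* was the lower one, at -2.03 ± 0.67. *Fbln5* and *Lox* were called in every setting that tested them, *Fbn2* not without *aadd* 2, *Eln* not without *aadd* 2, WT resting 1 or WT resting 3, and *Sparcl1* not without *aadd* 1, *aadd* 3 or WT resting 3.

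*Aspn* and *Ogn*, small proteoglycans of perichondrium and tendon, were the calls among 10 of their family. *Aspn* was at 16.2, 68.4 and 51.0 NRPKM against 9.14, 11.8 and 20.4 NRPKM, so *aadd* 1 lay within the WT resting range. Without *aadd* 2, *aadd* 3 or WT resting 1 no member of the family was called. *Aspn*, *Ogn*, *Postn*, *Eln*, *Lox* and *Col8a1* were all highest in *aadd* 2, the library with the most endothelial, macrophage and erythroid RNA. Summed loose connective tissue markers were 237, 418 and 262 NRPKM in *aadd* and 219 to 243 NRPKM in WT resting, and tendon markers 268, 415 and 237 NRPKM against 90.6, 292 and 340 NRPKM. The part of these cells in the matrix calls was not tested. Non-cartilage collagens gave 2 calls of 20, *Col8a1* and *Col25a1*, and *Col1a1*, the most abundant, gave -0.42 without a call. *Col25a1* was called in 6 of 17 settings, and without WT resting 1 the collagens gave 0 higher calls and 1 lower.

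Of 18 metalloproteinases and inhibitors 2 rose (11.1%, against 3.59% of all genes), both of the ADAMTS family that cleaves proteoglycans. *Adamts15* rose by 1.53 ± 0.29, from 2.74 to 4.57 NRPKM in WT resting, and *Adamts1* rose by 0.77 ± 0.18. *Sdc2*, a cell-surface heparan sulfate proteoglycan, was at 41.7, 50.6 and 47.4 NRPKM against 25.2, 28.4 and 31.6 NRPKM, the sole call among 9 glypicans and syndecans. *Cldn1*, a tight junction protein, rose by 2.37 ± 0.65, and *Panx3*, a channel protein of maturing chondrocytes and osteoblasts, fell by 2.37 ± 0.65. *Panx3* was at 0.86, 1.45 and 4.39 NRPKM against 21.1, 7.02 and 6.02 NRPKM, far under its 243 and 267 NRPKM in WT proliferative and hypertrophic cells. It was the single call among 6 tested hypertrophic markers, whose list summed to 42.6 to 63.7 NRPKM in *aadd* and 54.5 to 81.8 NRPKM in WT resting. The WT hypertrophic libraries had 1926 to 3911 NRPKM.

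**Figure D5:**
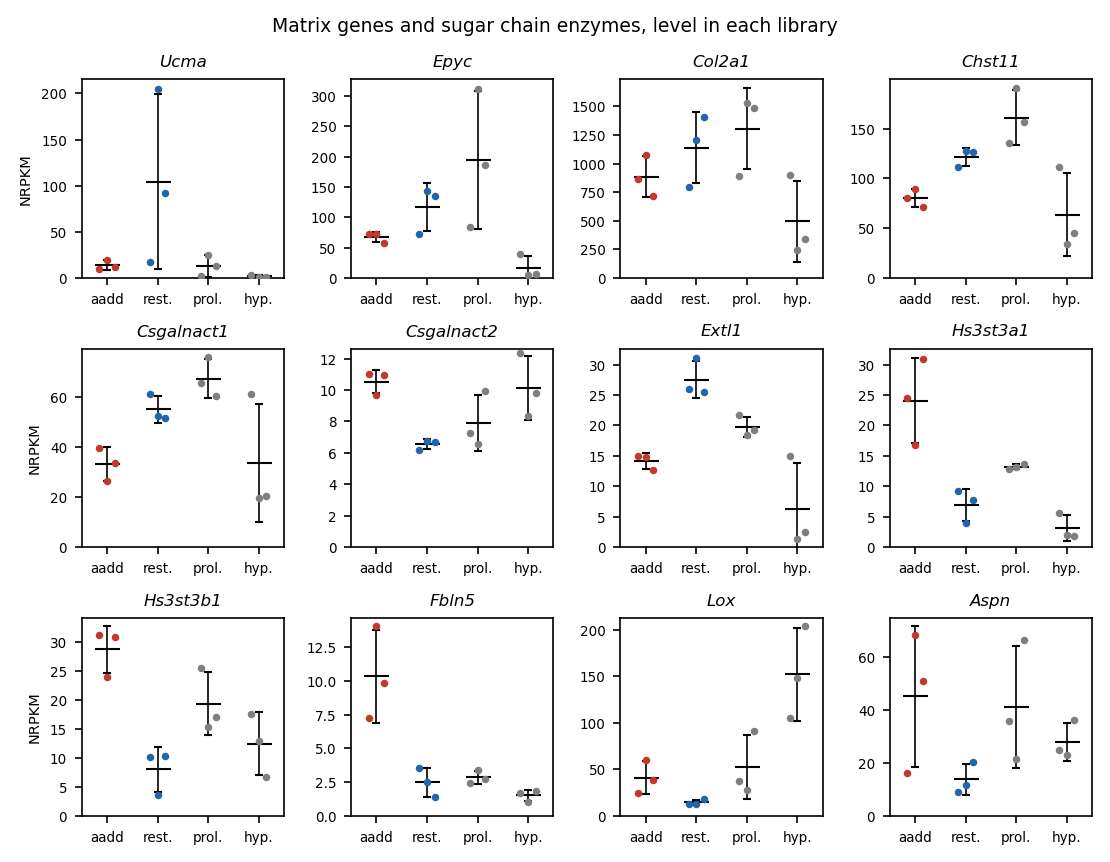
NRPKM of 12 matrix genes and sugar chain enzymes in the 3 libraries each of *aadd* (red), WT resting (rest., blue), WT proliferative (prol., grey) and WT hypertrophic (hyp., grey) cells. Points are libraries, black bars are mean and SD. *Chst11*, *Csgalnact1* and *Extl1* were lower in *aadd* and *Csgalnact2*, *Hs3st3a1*, *Hs3st3b1*, *Fbln5* and *Lox* higher. These had no overlap, as for 15.4% of all genes tested, while *Ucma*, *Epyc*, *Col2a1* and *Aspn* overlapped.

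Growth, division and basic metabolism gave few calls. None of 30 mitosis genes, 39 DNA replication genes or 23 cyclins and CDK inhibitors was called, with medians of 0.10, -0.03 and -0.04. *Mki67*, the proliferation antigen, was at 94.8, 85.2 and 91.5 NRPKM in *aadd* and at 102, 91.5 and 97.5 NRPKM in WT resting. Histone genes gave 1 higher and 2 lower calls among 26. Their RNA mostly lacks a poly(A) tail, and *Hist1h2bf*, the higher one, rested on at most 14.2 estimated reads in a library.

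Of 29 glycolysis and hypoxia genes 25 were below 0, with a median of -0.24, while 51% of all genes lay above 0. The lactate exporter *Slc16a3* and the glycolytic enzyme *Pfkm* were called lower (6.9%, against 2.45% of all genes). *Slc16a3* was at 17.2, 12.3 and 9.49 NRPKM against 19.3, 26.6 and 21.8 NRPKM and was called in all 17 settings, *Pfkm* in 8, and not without *aadd* 2, *aadd* 3 or any 1 of the WT resting libraries. *aadd* 1 stood at 0.01 for this list, within WT resting, and *aadd* 2 and 3 at -0.43 and -0.39. Cytosolic ribosomal proteins gave no call among 79, with 72 below 0 and a median of -0.14, and nuclear-encoded respiratory chain genes gave 1 of 78, *Cox4i2*, a subunit isoform used in low oxygen, at -0.94 ± 0.32, which was lost without *aadd* 1, *aadd* 3 or WT resting 2. Cholesterol and fatty acid synthesis gave 1 lower call of 33, *Fads2*, and the secretory pathway 2 lower calls of 38, *Ddit3* and *Sdf2l1*. *Ddit3*, the stress factor Chop, was at 11.8, 8.16 and 7.51 NRPKM against 14.3, 15.1 and 18.3 NRPKM. *Fads2* was lost without *aadd* 3 or WT resting 3, and *Sdf2l1* without *aadd* 2, *aadd* 3 or WT resting 1. None of 24 imprinted growth genes was called.

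A list of glycogen genes was drawn up after the calls were seen. *Pygl*, a glycogen phosphorylase, was at 9.75, 5.08 and 2.09 NRPKM in *aadd* and at 16.2, 23.6 and 23.8 NRPKM in WT resting (-2.12 ± 0.50). *Ppp1r3c* and *Ppp1r3b*, which bring a phosphatase to glycogen, were lower at -1.53 ± 0.55 and -1.25 ± 0.40. These were 3 of 15 glycogen genes tested, whose median was -0.07. *Pygl* was called in all 17 settings, though it overlaps the row *Atl1*. *Ppp1r3b* was lost without *aadd* 3, and *Ppp1r3c* overlapped between groups and was lost without *aadd* 1, *aadd* 3, WT resting 2 or WT resting 3.

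Some of the widest changes belonged to no list. *2610528A11Rik* (chr14:37102140-37110101), a protein-coding gene, passed the filter through WT resting alone, at 1.43, 2.41 and 1.88 NRPKM in *aadd* and at 18.8, 48.5 and 21.7 NRPKM in WT resting (-3.79 ± 0.37, limma adjusted *P* = 0.022, and 0.00922 to 0.171 over the alternatives). It averaged 9.35 NRPKM in WT proliferative and 1.49 NRPKM in WT hypertrophic cells. *Gm973* was at 3.58, 1.85 and 1.86 NRPKM against 7.93, 26.4 and 16.2 NRPKM (-2.65 ± 0.45). *Clec11a*, a secreted growth factor for bone-forming cells, was at 8.05, 9.36 and 4.27 NRPKM against 16.5, 35.6 and 22.8 NRPKM (-1.78 ± 0.37). *Kctd4* was lower at -1.75 ± 0.25 (adjusted *P* = 0.0704, limma) and *Gfod1* at -1.61 ± 0.30.

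Among the rises, *F13a1*, the transglutaminase chain of clotting factor XIII, which macrophages and chondrocytes both make, was at 11.2, 9.88 and 5.61 NRPKM against 0.50, 1.47 and 4.84 NRPKM. Macrophage markers summed to 21.9, 56.4 and 20.3 NRPKM in *aadd* and 17.1 to 25.4 NRPKM in WT resting, and *Cd68*, the single one above the filter, gave a log2 fold change of -0.002. *Actc1*, cardiac actin, made by embryonic skeletal muscle, was at 22.7, 25.5 and 10.3 NRPKM against 1.99, 1.498 and 3.66 NRPKM, and its order among the 6 libraries was that of the muscle marker sums above, of which it is a member. Of 177 rows with under 300 exonic bases 19 were called (10.7%, against 6.04% of all genes). *Mir10b*, a hairpin row inside the transcribed region of *Hoxd3* and *Hoxd4*, was listed at 9.61, 14.8 and 5.75 NRPKM against 0, 0 and 5.29 NRPKM, at most 2.22 estimated reads in a library, and *Mir381* had at most 2.16. No fold is given for these.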

How the data were processed

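RNA was taken by laser capture and sequenced. Low-quality, duplicate and multiply aligned reads were removed by the authors, who worked in GeneSpring. The submitters' processing notes name TopHat and mm10. The deposited unit is RPKM, normalized again across libraries by the authors (NRPKM), on a linear scale. No counts were used here. Depth came from receptor and keratin-associated genes of a single exon, whose commonest value was taken as 1 read, and it covers counting error only. It was computed as for plain RPKM, before any further normalization. Whether counting used strand is not given in the sources used here.

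The 6 libraries were fitted on log2(NRPKM + 0.1) with limma 3.58.1 (R 4.3.3), without covariates. Tables and plots used pandas 2.3.3 and matplotlib 3.10.9 in Python 3.11.15. Fold changes are on this scale and understate those of low genes. *P* values measure the spread between independent sets of captured compartments, and no list was tested. Members and lists (48 pathway and 12 marker lists) were chosen with earlier results of these data known. A further 5 lists (glycogen, planar polarity, cilium, chemokine, growth cone) were added after the calls.

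The named genes were those with adjusted *P* under 0.05, then the 10 widest rises and 10 widest falls among called genes without overlap and with 5 NRPKM in all libraries of the higher group, and in each list up to 6 called members by *P* and the 3 most abundant. RefSeq matched 33006 of 36186 rows for positions, and GENCODE gave exon lengths for 30981. On data simulated for this comparison, 200 of 10068 genes were changed by 1.5, 2 or 4-fold. The procedure called 45.5%, 92% and 99.5% of them, and also 217, 221 and 199 unchanged genes. The simulated noise was normal and independent between genes, without zeros or RNA of other tissues. These counts therefore give no error rate for the calls in the real data. Adjusted *P* was under 0.05 for 0%, 37.5% and 96% of the changed genes.

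Alternatives were a pseudocount of 1, other filters on low values (none, over 12 libraries, on the mean, or in 4 of 6), a median-of-ratios or quantile rescaling, a fit of all 12 libraries, a replicate block, a trend of variance on level, sex as a covariate, and leaving out each library. Some named genes are not reported here.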

Additional observations from a re-analysis of the deposited data

How the results depend on the processing

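The count of 608 called genes stayed within 1.5 times of its value except with no filter on low values, where 1300 of 22335 genes were called. With 1 library left out it was 470 to 906, lowest without *aadd* 3 and highest without WT resting 1. The 13 genes with adjusted *P* under 0.05 became 25 with a pseudocount of 1, 2 with the filter in 4 of the 6 libraries, 8 with all 12 libraries in one fit, 2 with the replicate block, 22 with the variance trend, 7 with sex as a covariate, and 1 to 21 with 1 library left out, fewest without *aadd* 3 and 21 without WT resting 3. With the block 661 genes were called. Deviations of same-numbered libraries correlated at 0.034, 0.284 and -0.126, so the numbers were not taken to pair the samples, and *aadd* 3 correlated best with WT resting 1 (0.361).

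Of 575 calls beyond the Hox clusters and the 28 genes, 539 held under both rescalings, 261 in all 6 fits without a library, and 154 in all 17 settings. Of 124 called genes that were named, 54 were called in every setting that tested them and none changed sign. The rescalings moved the median of all genes from 0.008 to -0.002 and -0.004. The cause of these shifts was not tested. At an estimated 2200000 to 2950000 reads a library, genes near 5 NRPKM rest on few reads.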
